A study of Mus musculus with 12 samples.

Results

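RNA of abdominal fat was compared directly between mice given a short hairpin RNA (shRNA) adenovirus against Tsc22d4 and mice given one against Lcn13. The comparison uses 6 of the 12 arrays of the series, chosen by their labels alone: TSC22D4 shRNA replicates 10, 11 and 12 and Lipocalin13 (LCN13) shRNA replicates 5, 6 and 8. All animals were BKS.Cg-Dock7m +/+ Leprdb/J mice aged 12 weeks, a line whose Lepr db allele removes the signalling form of the leptin receptor and leaves the homozygous mice obese and diabetic, and their fat was frozen 1 week after the injection. The TSC22D4 group received 2e9 plaque-forming units of TSC22D4 shRNA virus and 2e9 of control shRNA virus. The LCN13 group received 2e9 of LCN13 shRNA virus and 2e9 of control virus, so both sides held the same amount of control virus and the same total amount of virus. The other 6 arrays were 3 of mice with 4e9 of control virus and 3 of mice that got both shRNA viruses, 2e9 of each, without any control virus. Each treatment was given to 7 animals, and the 3 put on arrays were picked by the submitters as representative, so they are not a random draw. Whether the virus reached the fat, and which of its cells, is not given in the sources used here.

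TSC22D4 belongs to the TSC22 domain family of leucine zipper proteins, which act in transcription, and LCN13 is a secreted lipocalin, a carrier of small hydrophobic molecules. In fat cells, insulin drives glucose uptake, a small glycogen store, and the making of fatty acids and triglyceride, while sterol regulatory element binding proteins (SREBPs) switch on the genes of fatty acid and cholesterol synthesis. The direct comparison asks how fat RNA differs between the 2 gene-directed viruses when the load of control virus is the same. Below, higher and lower always mean higher or lower with the TSC22D4 shRNA than with the LCN13 shRNA, as a difference of log2 values, and a gene is called where limma's Benjamini-Hochberg adjusted p over all genes was under 0.05.

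The 6 arrays carried the defining RNAs of fat. Adipoq, the gene of adiponectin, lay between 12.20 and 12.45 log2, and Lep, the gene of leptin, between 13.93 and 14.01. Of 21 adipocyte identity genes 0 were called in limma, beside 1.03% of all genes. Their differences were negative in 16, with a median of -0.02. The animals differed in RNAs of other tissues, which can enter when a fat pad is dissected. In LCN13 replicates 5 and 6 the mean of 16 mesothelial markers, which mark the cell layer covering visceral fat, lay 0.47 and 0.49 above the 12-array mean, and all 16 were above it. LCN13 replicate 8 lay at -0.13 and the TSC22D4 arrays at -0.18, -0.25 and 0.01. All 16 mesothelial markers had negative differences, with 0 called beside 1.03% of all genes. Their median of -0.33 became 0.08 without LCN13 replicates 5 and 6 and -0.59 without LCN13 replicate 8. Liver markers followed the same arrays at 0.20 and 0.23 in LCN13 replicates 5 and 6, against -0.125 to -0.001 in the other 4 arrays compared. Of 19 liver markers 17 had negative differences and 0 were called, beside 1.03% of all genes. The arrays were separate in the lower direction for 13 and in the higher direction for 1, beside 25.2% of all genes in either direction. The liver median of -0.13 became -0.05 without LCN13 replicates 5 and 6, with 17 differences negative in that fit too. The 4 red blood cell markers ran the other way, at -0.96 and -0.90 in LCN13 replicates 5 and 6, 0.52 in LCN13 replicate 8 and -0.13 to 0.39 in the TSC22D4 arrays. Of the 6 arrays TSC22D4 replicate 11 alone carried epididymis RNA, with a list mean of 1.47 against -0.20 to -0.12 in the other 5 arrays. Gpx5, a secreted epididymal peroxidase, read 11.41 there and 5.76 to 6.16 in the other 5. In whole tissue, fewer cells of a type and less RNA per cell cannot be told apart.

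**Figure D1:**
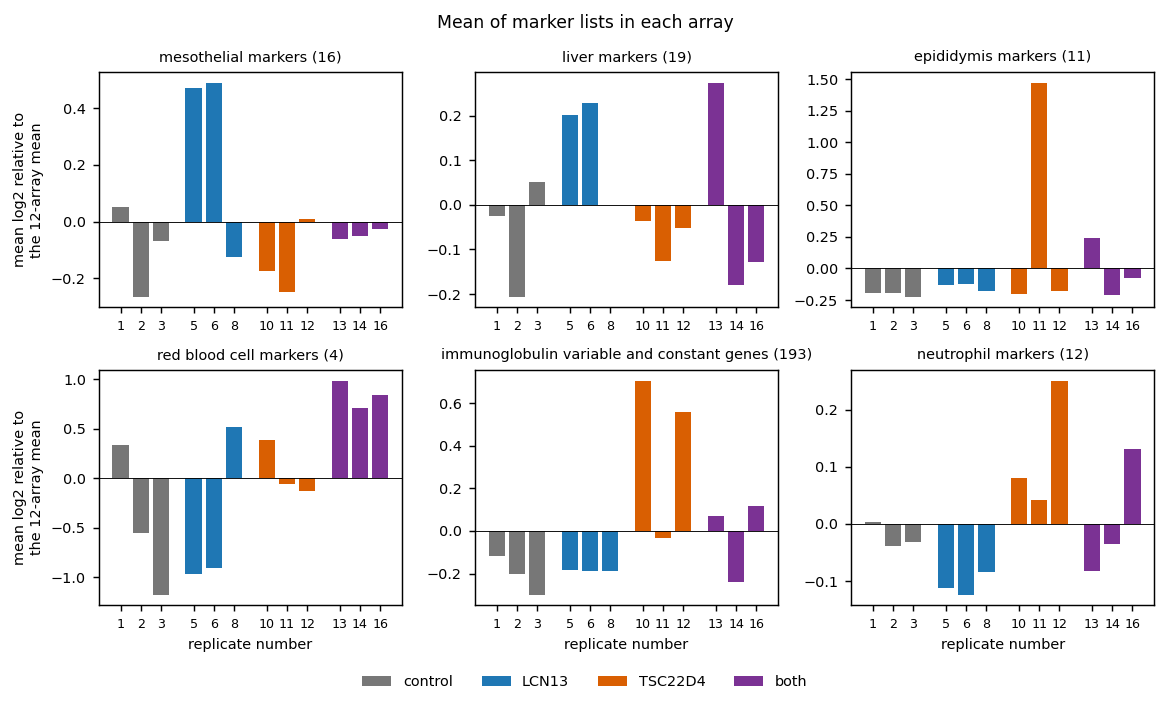
Mean log2 value of 6 gene lists in each of the 12 arrays, relative to the 12-array mean (y axis), by replicate number (x axis) and group (colour), with the number of measured genes in brackets. LCN13 replicates 5 and 6 stand at 0.47 and 0.49 for mesothelial markers, TSC22D4 replicate 11 at 1.47 for epididymis markers, and TSC22D4 replicates 10 and 12 at 0.71 and 0.56 for immunoglobulin genes.

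No difference was detected in either target. Tsc22d4 read 7.74, 7.72 and 7.56 in the TSC22D4 arrays and 7.59, 7.74 and 7.67 in the LCN13 arrays. These values overlap, and the difference was 0.01 (SE 0.08, limma adjusted p = 0.974, 95% interval -0.17 to 0.19). Lcn13, listed under its present symbol Obp2a, read 5.76, 5.79 and 5.73 in the TSC22D4 arrays and 5.71, 5.74 and 5.71 in the LCN13 arrays, close to the lowest value on the arrays (5.62). So dim a value says nothing of the knockdown, and the labels of the 6 arrays are not checked by their targets.

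Of 23185 genes 239 were called (1.03%), 106 higher (0.457%) and 133 lower (0.574%). The differences were small: their median size was 0.34 log2, 10 genes were at least 2-fold higher and 0 at least 2-fold lower, and 22 and 12 reached 1.5-fold. In all 239 genes the arrays of both groups did not overlap, as in 25.2% of all genes. The median over all genes was -0.0046. The higher genes included enzymes of glycogen synthesis (Gys2, Gbe1, Gyg), of cholesterol synthesis (Lss, Hsd17b7) and of cysteine synthesis (Cth), immunoglobulin kappa variable genes, and the receptors Olr1, Tlr5 and Ncr1. The lower genes included glutathione S-transferases (Gstt1, Gsta4), the fatty acid desaturase Fads1, epithelial and matrix receptors (Cdh1, Ddr1), the interferon-induced gene Samd9l and the fibroblast markers Dpp4 and F3.

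**Figure D2:**
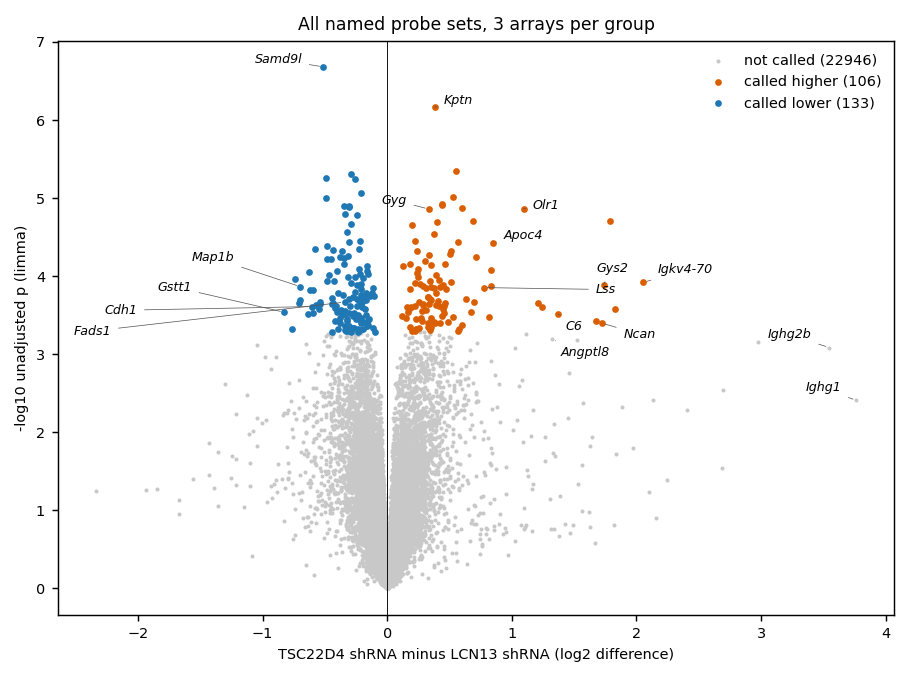
Log2 difference of every named gene (x axis, TSC22D4 minus LCN13 shRNA) against -log10 of limma's unadjusted p (y axis), with 106 genes called higher in orange, 133 called lower in blue and 22946 not called in grey. The immunoglobulin genes Ighg1 and Ighg2b lie far to the right without being called, and the smallest p belongs to Samd9l.

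Most calls needed each of 5 of the 6 arrays. Leaving out LCN13 replicate 5 left 2 calls and leaving out LCN13 replicate 6 left 4. Without TSC22D4 replicates 10, 11 or 12 in turn there were 4, 6 and 8 calls, whereas without LCN13 replicate 8 there were 582. Without LCN13 replicates 5 and 6 together 0 genes were called in limma, with 1784 at an unadjusted p under 0.05, against 4101 with all arrays. That fit leaves 1 LCN13 array, assumed to vary like the other groups, so the smaller arm itself lowers the count. LCN13 replicate 8 was the LCN13 array nearest to the TSC22D4 arrays for 66 of the 106 higher and 76 of the 133 lower genes. Set against that array alone, the median difference was 0.32 instead of 0.38 for the higher genes and -0.27 instead of -0.31 for the lower ones. These genes were called with that array in the fit, and the groups were separate in all of them. The direction against that array was thus fixed by the calling and is no separate support. Samd9l and Kptn, an actin-associated protein of the KICSTOR complex, were the only genes called in all 12 fits that left out 1 array. The other 43 called genes named below lost their call without LCN13 replicate 5, without LCN13 replicate 6 and without TSC22D4 replicates 10 or 12, and 40 of them without TSC22D4 replicate 11. Array 13 of the group with both viruses also mattered through the shared spread: without it 73 genes were called, and 34 of the 45 called genes named below were not.

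**Figure D3:**
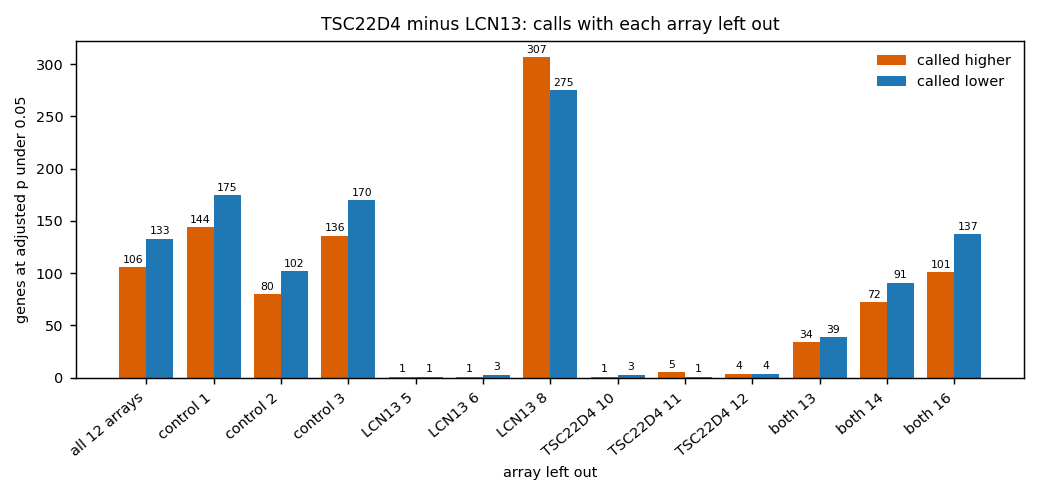
Number of genes called higher (orange) and lower (blue) in TSC22D4 against LCN13 (y axis) with all 12 arrays and with each array left out in turn (x axis). The bars drop to between 1 and 5 when any of the 6 arrays compared is left out other than LCN13 replicate 8, whose removal gives 307 higher and 275 lower.

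Glycogen enzymes were called higher, with Gys2 at the largest difference of the list. Gys2, the glycogen synthase known mainly from liver and also made in fat, read 9.62, 9.75 and 9.71 in the TSC22D4 arrays and 7.50, 7.71 and 8.66 in the LCN13 arrays. The TSC22D4 arrays lay close together and all above the LCN13 arrays, of which replicate 8 was the highest. Gys2 was 1.74 log2 higher (SE 0.28, limma adjusted p = 0.036), a 3.33-fold difference. Control arrays averaged 8.40 and the arrays with both shRNAs 9.29, so both lay between. This is common to the calls: the control mean lay between for 93 of the 106 higher genes, and the mean with both shRNAs for 101. Gyg, the gene of glycogenin, the protein primer of each glycogen particle, read 12.37, 12.44 and 12.41 against 12.04, 12.01 and 12.17 with LCN13 shRNA (difference 0.33, SE 0.04, adjusted p = 0.0188). Gbe1, the branching enzyme, read 10.54, 10.60 and 10.50 against 9.98, 10.06 and 10.20 (difference 0.47, SE 0.08, adjusted p = 0.036). For Gyg and Gbe1 too, LCN13 replicate 8 was the LCN13 array nearest to the TSC22D4 group. Of 16 measured genes of glycogen synthesis and breakdown 3 were called higher, against 0.457% of all genes, and 0 lower. The list was chosen with earlier results of these data known, so this share is no independent support. In 15 of the 16 the difference was positive, with a median of 0.14, which became 0.25 over the 11 genes with a mean of at least 7 and 0.09 without TSC22D4 replicate 11. Ppp1r3b, a subunit that brings protein phosphatase 1 to glycogen, differed by 0.54 (adjusted p = 0.0872). Pygl, a glycogen phosphorylase, which breaks glycogen down, differed by 0.46 (adjusted p = 0.0781). Gys2, Gyg and Gbe1 lost their calls without LCN13 replicates 5 or 6 or any TSC22D4 array (adjusted p up to 0.126), and without LCN13 replicates 5 and 6 together their differences were 1.04, 0.23 and 0.35.

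**Figure D4:**
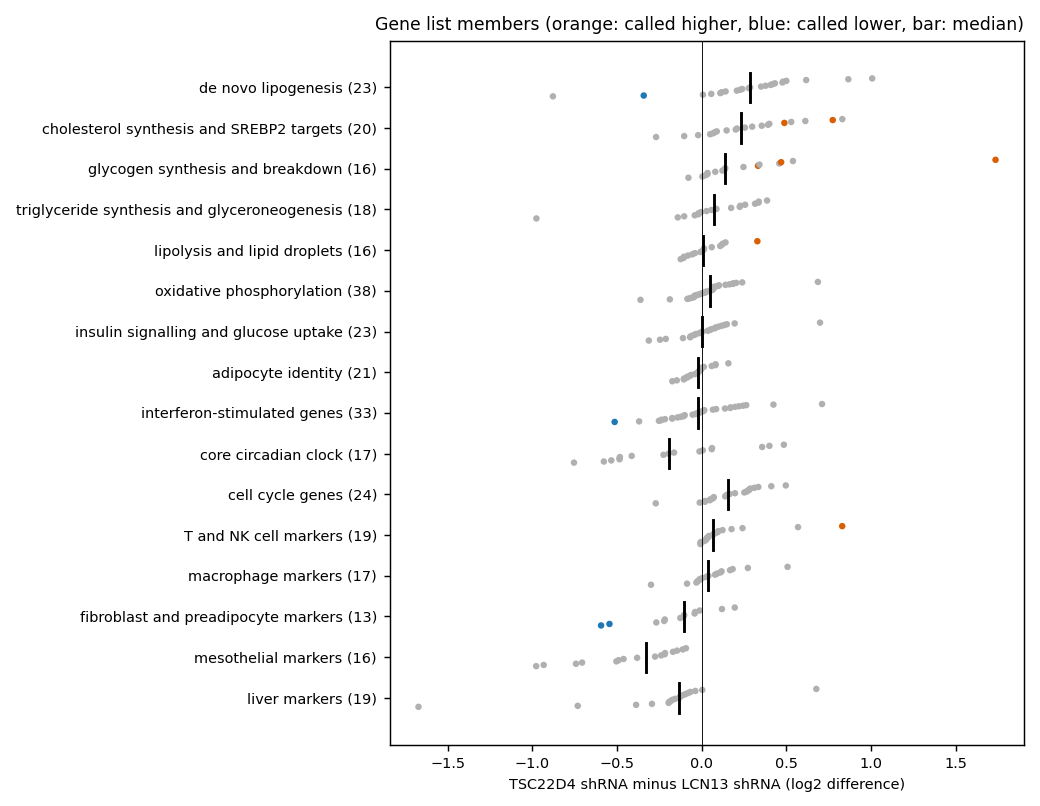
Log2 difference (x axis, TSC22D4 minus LCN13 shRNA) of each measured member of 16 gene lists (y axis, number measured in brackets), with called members coloured and a bar at the median. Lipogenesis, cholesterol and glycogen members lie mostly to the right, with Fads1 (-0.34) and Fads2 (-0.88) to the left of the lipogenesis row, and all 16 mesothelial markers lie to the left.

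De novo lipogenesis genes, which turn glucose carbon into fatty acids, had mostly positive differences that did not pass the test. Of 23 measured 0 were called higher and 1 lower, beside 0.457% and 0.574% of all genes, while 21 differences were positive. The arrays did not overlap for 15 members in the higher and 2 in the lower direction, beside 25.2% of all genes in either direction. Their median was 0.29, which became 0.14 without LCN13 replicates 5 and 6 and stood at 0.38 without LCN13 replicate 8. Elovl6, which extends palmitate, read 10.95, 11.17 and 10.64 with TSC22D4 shRNA and 9.78, 9.44 and 10.51 with LCN13 shRNA, and differed by 1.01 (SE 0.31, limma adjusted p = 0.142). Acss2, which makes acetyl-CoA from acetate, read 11.34, 11.16 and 11.22 against 10.03, 10.25 and 10.85, a difference of 0.87 (adjusted p = 0.0786). For both genes the groups were separate, and LCN13 replicate 8 was the nearest LCN13 array. Acetyl-CoA carboxylase Acaca differed by 0.62 (adjusted p = 0.0988), fatty acid synthase Fasn by 0.38 (adjusted p = 0.174) and Srebf1, the gene of SREBP1, by 0.23 (adjusted p = 0.183). Scd1, the stearoyl-CoA desaturase, differed by 0.01 with a 95% interval of -0.07 to 0.09, near the top of the array's scale.

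The desaturases of polyunsaturated fatty acids ran the other way. Fads1, the delta-5 desaturase, read 11.01, 10.93 and 10.86 with TSC22D4 shRNA and 11.38, 11.30 and 11.14 with LCN13 shRNA. All 3 TSC22D4 arrays were below all LCN13 arrays, and Fads1 was called lower (difference -0.34, SE 0.06, limma adjusted p = 0.0381). Fads2, the delta-6 desaturase, read 10.79, 10.75 and 10.42 against 11.47, 11.59 and 11.54, again without overlap, but its difference of -0.88 did not pass (SE 0.33, adjusted p = 0.215). The mean of Fads2 was 10.76 in the control arrays and 10.81 with both shRNAs, close to the TSC22D4 mean of 10.65, while the LCN13 mean was 11.53. Fads1 was not called without LCN13 replicates 5 or 6, any TSC22D4 array, arrays 13 or 14 of the group with both shRNAs or control replicate 2 (adjusted p up to 0.133). Mlx, the partner of the carbohydrate response factor ChREBP, is outside the list and was picked here after its value was seen: it was called 0.38 higher (adjusted p = 0.0449).

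Angptl8, a secreted protein of fat and liver induced by feeding that acts on lipoprotein lipase, read 10.69, 10.94 and 10.55 with TSC22D4 shRNA and 9.16, 9.31 and 9.74 with LCN13 shRNA. The groups did not overlap. The difference of 1.32 missed the threshold (SE 0.26, limma adjusted p = 0.0552, 95% interval 0.73 to 1.92). Control arrays averaged 9.03 and arrays with both shRNAs 9.58. Of 13 measured genes of lipoprotein lipase and its regulators 0 were called, beside 1.03% of all genes. Lpl itself differed by -0.01 (95% interval -0.12 to 0.10). Vldlr, a receptor for triglyceride-rich particles, differed by 0.50 (adjusted p = 0.113), and Apoc3, an inhibitor of the lipase made mainly in liver, by -0.76 (adjusted p = 0.269). Apoc3 read 8.02 and 8.18 in LCN13 replicates 5 and 6, the arrays high for liver markers, and 7.07 to 7.45 in the other 4. Apoc4, an apolipoprotein of the same gene cluster as Apoc2, was called higher: it read 8.47, 8.35 and 8.33 against 7.39, 7.67 and 7.56 (difference 0.85, SE 0.12, adjusted p = 0.0281). Its call was lost without LCN13 replicates 5 or 6 or any TSC22D4 array (adjusted p up to 0.0972), with a difference of 0.77 to 0.91 over the 12 fits.

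Of 20 measured genes of cholesterol synthesis and other SREBP2 targets 2 were called higher, against 0.457% of all genes, with 0 lower. Lss, which closes the sterol ring, and Hsd17b7, which acts later in the pathway, were these 2. This list too was chosen with earlier results of these data known, so its share of calls is no independent support. Mmab, a cobalamin enzyme, was also called and lies outside the list. The promoters of the 3 genes are shown because sterol-responsive promoters commonly join an SREBP site to CCAAT boxes, the site of the factor NF-Y. No sterol regulatory element was searched for. Mmab was picked after its value was seen, and Tmem97, also called and outside the list, is not shown. Each promoter shown runs from 250 bases before to 50 bases after the start of the gene, 5′ to 3′ on the strand of the gene, from RefSeq on mouse GRCm38.p6. Capitals mark CCAAT, searched on both strands, so that ATTGG is CCAAT on the other strand, and the E-box CACGTG, which reads the same on both strands.
Lss promoter (chr10:76531355-76531654, plus strand): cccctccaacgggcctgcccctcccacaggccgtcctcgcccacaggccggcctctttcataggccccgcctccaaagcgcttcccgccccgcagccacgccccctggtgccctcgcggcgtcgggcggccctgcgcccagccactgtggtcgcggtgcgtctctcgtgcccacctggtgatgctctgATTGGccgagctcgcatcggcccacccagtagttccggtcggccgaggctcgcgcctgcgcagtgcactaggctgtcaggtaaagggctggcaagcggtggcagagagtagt
Hsd17b7 promoter (chr1:169969156-169969455, minus strand): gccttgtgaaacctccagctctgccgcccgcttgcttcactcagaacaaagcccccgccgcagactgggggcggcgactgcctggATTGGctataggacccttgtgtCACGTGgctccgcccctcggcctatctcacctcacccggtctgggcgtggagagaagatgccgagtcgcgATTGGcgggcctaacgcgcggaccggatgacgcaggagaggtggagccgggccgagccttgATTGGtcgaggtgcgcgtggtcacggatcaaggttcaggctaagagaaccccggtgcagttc
Mmab promoter (chr5:114443978-114444277, minus strand): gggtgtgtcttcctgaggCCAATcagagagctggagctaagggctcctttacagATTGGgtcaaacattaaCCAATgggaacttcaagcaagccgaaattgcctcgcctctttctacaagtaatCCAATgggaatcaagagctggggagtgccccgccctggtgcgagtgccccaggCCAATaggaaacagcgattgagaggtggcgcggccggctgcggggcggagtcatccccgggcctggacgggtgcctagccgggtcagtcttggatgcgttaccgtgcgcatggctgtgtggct
CCAAT stood once in the Lss promoter, 3 times in that of Hsd17b7 and 5 times in that of Mmab, and CACGTG once in that of Hsd17b7. Of the 20 measured cholesterol genes 16 matched a promoter entry, and all 16 genes had CCAAT there. The letters were found for 42 of 81 called higher genes with a promoter entry (51.9%) and 46 of 102 called lower genes (45.1%). Counted per promoter and not per gene, 37.4% of all 32851 RefSeq promoters held CCAAT. That share is thus no matched background for the shares of genes. The cholesterol list was gathered as SREBP2 targets, so its share belongs to that choice and not to the comparison. These are matches of letters, and binding was not measured.

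Lss read 9.60, 9.58 and 9.68 with TSC22D4 shRNA and 8.70, 8.71 and 9.13 with LCN13 shRNA, without overlap, and was 0.77 higher (SE 0.13, limma adjusted p = 0.036). Hsd17b7 read 9.80, 9.97 and 9.90 against 9.31, 9.48 and 9.42 (difference 0.49, SE 0.09, adjusted p = 0.0449). For Hsd17b7 LCN13 replicate 8 lay within the other LCN13 arrays, and the difference without LCN13 replicates 5 and 6 was 0.47, against 0.49 for Lss. Of the 20 genes 17 had positive differences, with a median of 0.23, and the arrays were separate for 10, all in the higher direction, beside 25.2% of all genes in either direction. Dhcr7, the last enzyme of the pathway, differed by 0.83 (adjusted p = 0.0707), the sterol demethylase Cyp51 by 0.53 (adjusted p = 0.0764) and phosphomevalonate kinase Pmvk by 0.61 (adjusted p = 0.124). Outside the list, and picked after their values were seen, Mmab (0.58, adjusted p = 0.0492) and Tmem97, a sterol-related membrane protein (0.40, adjusted p = 0.0381), were called higher. All 4 calls were lost without LCN13 replicates 5 or 6, any TSC22D4 array or array 13 of the group with both shRNAs (adjusted p up to 0.147), Hsd17b7 also without LCN13 replicate 8 or control replicates 1 or 2 and Mmab also without arrays 14 and 16 of that group or any control array.

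Among genes of triglyceride storage 1 was called. Plin3, a coat protein of small lipid droplets, read 9.42, 9.37 and 9.31 with TSC22D4 shRNA and 9.01, 9.00 and 9.10 with LCN13 shRNA, without overlap, and was called 0.33 higher (SE 0.06, limma adjusted p = 0.0449). It was the only called member of 16 lipolysis and droplet genes, beside 1.03% of all genes, and the median of the 16 was 0.01. Its call was lost without LCN13 replicates 5 or 6, any TSC22D4 array or any array with both shRNAs (adjusted p up to 0.158). Of 18 genes of triglyceride synthesis and glyceroneogenesis 0 were called, beside 1.03% of all genes. Pck1, the enzyme that feeds glycerol synthesis from pyruvate in fat, read 10.91, 11.38 and 10.84 with TSC22D4 shRNA and 12.12, 12.07 and 11.86 with LCN13 shRNA. The groups did not overlap, but the difference of -0.98 did not pass (SE 0.28, adjusted p = 0.127). Pyruvate carboxylase Pcx differed by 0.34 (adjusted p = 0.0559), Gpat3 by 0.39 (adjusted p = 0.3) and Mogat2 by 0.34 (adjusted p = 0.463).

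Among secreted factors of fat 1 of 20 measured genes was called, beside 1.03% of all genes. Nrg4, a growth factor of the epidermal growth factor family released by fat, read 10.06, 10.11 and 10.02 with TSC22D4 shRNA and 9.34, 9.37 and 9.79 with LCN13 shRNA (difference 0.57, SE 0.11, limma adjusted p = 0.0497). LCN13 replicate 8 lay between the other LCN13 arrays and the TSC22D4 arrays, and without LCN13 replicates 5 and 6 the difference was 0.28. The call was lost in 11 of the 12 fits that left out 1 array, all but that without LCN13 replicate 8 (adjusted p up to 0.171). Sfrp5, an inhibitor of Wnt ligands, differed by -0.65 (adjusted p = 0.125) and angiotensinogen, Agt, by -0.40 (adjusted p = 0.0742). Adipoq differed by -0.09 (95% interval -0.25 to 0.08) and Lep by 0.03 (95% interval -0.01 to 0.08).

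No gene of insulin signalling and glucose uptake was called among 23 measured, beside 1.03% of all genes, and their median was 0.0039. The glucose transporter Slc2a4 differed by 0.08 (95% interval -0.39 to 0.55), Irs1 by -0.21 (-0.56 to 0.14) and Irs2 by -0.31 (-0.86 to 0.24). The intervals are wide beside the median size of the called differences, 0.34; each holds differences as large as that in at least 1 direction. Grb14, an inhibitor of the insulin receptor, differed by 0.70 (limma adjusted p = 0.155). The adipocyte regulator Pparg differed by -0.01 (95% interval -0.10 to 0.09), the lipase Pnpla2 by 0.01 (-0.09 to 0.11), the thermogenic gene Ucp1 by 0.01 (-0.13 to 0.15) and the pyruvate dehydrogenase kinase Pdk4 by -0.04 (-0.35 to 0.27). For Pdk4 the TSC22D4 and LCN13 means, 10.56 and 10.60, lay together below those of control (11.38) and both shRNAs (11.23).

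Immunoglobulin genes gave the largest differences of all, though few passed the test. Igkv4-70, a kappa light chain variable gene, read 8.57, 7.59 and 8.97 in the TSC22D4 arrays and 6.12, 6.03 and 6.81 in the LCN13 arrays, and was 2.06 higher (SE 0.33, limma adjusted p = 0.036). Igkv5-43 (1.83, adjusted p = 0.0388), Igkv4-73 (1.79, adjusted p = 0.0212), Igkv4-78 (1.68, adjusted p = 0.0446) and Igkv4-79 (0.53, adjusted p = 0.0421), the last named after its value was seen, were also called higher. Members of this family are alike in sequence and may share probe signal, so single names are uncertain. Of 193 measured immunoglobulin genes, a family gathered after their values were seen, 5 were called higher, against 0.457% of all genes, and 0 lower, 167 differences were positive, and the median was 0.39. TSC22D4 replicates 10 and 12 carried this signal: their family means lay 0.71 and 0.56 above the 12-array mean, TSC22D4 replicate 11 at -0.03, and the LCN13 arrays at -0.18 to -0.19. The class-switched heavy chain gene Ighg2b read 12.30, 9.88 and 12.24 against 7.29, 7.56 and 8.94, and differed by 3.55 (SE 0.73, adjusted p = 0.0601). Ighg1 read 11.42, 8.96 and 11.51 against 6.63, 6.71 and 7.26 and differed by 3.77 (SE 0.99, adjusted p = 0.102). For both genes all TSC22D4 arrays lay above all LCN13 arrays, with replicate 11 well below the other TSC22D4 arrays. Jchain, which links secreted antibody units, read 8.95, 6.87 and 8.62 against 6.96, 6.69 and 6.79, so replicate 11 overlapped the LCN13 arrays (difference 1.33, adjusted p = 0.189). Of 14 B and plasma cell markers 0 were called, beside 1.03% of all genes, and their median was 0.04. The called immunoglobulin genes lost their calls without LCN13 replicates 5 or 6 or TSC22D4 replicates 10 or 12 (adjusted p up to 0.146).

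Other immune genes called higher were receptors and a complement component. Olr1, the receptor for oxidised low density lipoprotein, read 9.94, 9.85 and 9.89 with TSC22D4 shRNA and 8.93, 8.50 and 8.96 with LCN13 shRNA (difference 1.10, SE 0.13, limma adjusted p = 0.0188). Its TSC22D4 arrays lay close together and all above the LCN13 arrays, and it was also called higher with both shRNAs than in control (0.79, adjusted p = 0.0212). Tlr5, the receptor for flagellin, read 8.66, 8.62 and 8.82 against 7.69, 7.70 and 8.20 (difference 0.84, adjusted p = 0.0344). C6, a component of the membrane attack complex, read 8.17, 8.24 and 8.62 against 6.75, 6.62 and 7.54 (difference 1.37, adjusted p = 0.0407). In Tlr5 and C6 LCN13 replicate 8 stood above LCN13 replicates 5 and 6, whose removal took the differences to 0.50 and 0.80. Ncr1, the activating receptor of natural killer cells, read 8.08, 8.46 and 8.18 against 7.48, 7.37 and 7.37 (difference 0.83, adjusted p = 0.036). It was the only called gene of 19 T and NK cell markers, beside 1.03% of all genes, and the median of the 19 was 0.06. Nkg7, a cytotoxic granule protein, overlapped between the groups (difference 0.57, adjusted p = 0.242). Of 12 neutrophil markers 0 were called, beside 1.03% of all genes. S100a8 read 8.13, 8.28 and 9.42 against 6.82, 6.82 and 7.48 (difference 1.57, adjusted p = 0.104). The 17 macrophage markers had a median of 0.04 with 0 called, beside 1.03% of all genes. Adgre1, their defining surface marker, differed by 0.09 (95% interval -0.09 to 0.28) and the chemokine Ccl2 by -0.12 (-0.56 to 0.33). Olr1, Tlr5, C6 and Ncr1 each lost the call without LCN13 replicates 5 or 6 or any TSC22D4 array (adjusted p up to 0.142).

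Among interferon-stimulated genes, which respond to virus, 1 was called, at the same load of control virus in both groups. Of 33 measured 0 were called higher and 1 lower, beside 0.457% and 0.574% of all genes, and the median was -0.02. With the combined shRNAs, which came without control virus, 28 of the 33 were called lower than in control, as were 238 of all 23185 genes, and the median differences from control were -1.54 with TSC22D4, -1.44 with LCN13 and -1.66 with both. These 3 values share the control arrays. The called gene was Samd9l, an interferon-induced antiviral protein, which read 8.40, 8.47 and 8.52 with TSC22D4 shRNA and 8.98, 8.97 and 8.97 with LCN13 shRNA. The groups did not overlap, and it had the smallest p of all genes (difference -0.51, SE 0.04, limma adjusted p = 0.00483). Control arrays averaged 9.63 and arrays with both shRNAs 8.61. Its adjusted p stayed between 0.000581 and 0.0376 in the 12 fits that left out 1 array. Ifit1, which binds viral RNA, is named here after its value was seen, and differed by -0.25 (95% interval -0.55 to 0.04). Igtp, an interferon-induced GTPase, read 10.56, 10.74 and 10.86 against 9.75, 9.89 and 10.39 and differed by 0.71 in the higher direction (adjusted p = 0.0951).

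Further genes called higher had no shared list. Ncan, the gene of neurocan, a matrix proteoglycan known from brain, read 10.49, 10.38 and 10.79 with TSC22D4 shRNA and 8.38, 8.45 and 9.68 with LCN13 shRNA (difference 1.72, SE 0.32, limma adjusted p = 0.0451). Cth, which makes cysteine from cystathionine, read 9.11, 9.20 and 8.85 against 7.67, 7.68 and 8.08 (difference 1.24, adjusted p = 0.0381). Nabp1, a single-stranded DNA binding protein, read 10.55, 10.43 and 10.60 against 9.13, 9.13 and 9.70 (difference 1.21, adjusted p = 0.0381). LCN13 replicate 8 was the highest LCN13 array in all 3 genes, and without LCN13 replicates 5 and 6 the differences were 0.88, 0.97 and 0.83. Csad, which makes the taurine precursor hypotaurine, is named after its value was seen and was called 0.44 higher (adjusted p = 0.0188). Arxes1, a gene expressed in fat and tied to adipocyte differentiation, read 9.97, 10.09 and 9.75 against 9.08, 9.11 and 9.18 (difference 0.81, adjusted p = 0.0428). Here the LCN13 arrays were close together, and control (9.73) and both shRNAs (9.93) lay near the TSC22D4 mean of 9.94. Kptn, likewise named after its value was seen, read 7.37, 7.31 and 7.38 against 7.00, 6.90 and 7.00 (difference 0.38, SE 0.03, adjusted p = 0.00795). Ncan, Cth, Nabp1, Csad and Arxes1 were not called without LCN13 replicates 5 or 6 or any TSC22D4 array (adjusted p up to 0.158).

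Gstt1 and Camk2n1 had the largest called decreases. Gstt1, a glutathione S-transferase, read 9.73, 9.89 and 9.89 with TSC22D4 shRNA and 10.74, 10.79 and 10.47 with LCN13 shRNA (difference -0.83, SE 0.15, limma adjusted p = 0.0401). Gsta4, the transferase that clears the lipid peroxidation product 4-hydroxynonenal, read 8.73, 8.96 and 8.69 against 9.60, 9.53 and 9.33 (difference -0.70, adjusted p = 0.0381). Both genes lay lower in every TSC22D4 array. Of 22 glutathione S-transferase genes, gathered after their values were seen, 2 were called lower, against 0.574% of all genes, and 0 higher, and 18 differences were negative with a median of -0.09. Gstm5 differed by -1.36 (adjusted p = 0.187), with TSC22D4 replicate 12 the lowest of the 6 arrays at 8.51. Map1b, a microtubule-associated protein of neurons and other cells, read 9.41, 9.66 and 9.39 against 10.33, 10.19 and 10.03 (difference -0.70, adjusted p = 0.036). Control (9.55) and both shRNAs (9.65) were nearer to the TSC22D4 mean of 9.49 than to the LCN13 mean of 10.18. Ivns1abp, an actin-binding kelch protein, read 11.14, 11.22 and 10.88 against 11.80, 11.79 and 11.87 (difference -0.74, adjusted p = 0.036), and here LCN13 replicate 8 was the highest LCN13 array. Camk2n1, an inhibitor of CaM kinase II (-0.76, adjusted p = 0.0492), the glycine transporter Slc6a9 (-0.71, adjusted p = 0.0381) and the sodium bicarbonate transporter Slc4a4 (-0.60, adjusted p = 0.0402) were also lower. Other genes called lower were the tetraspanin Cd82 (-0.64), the sodium pump subunit Fxyd2 (-0.62), the phosphatase Dusp14 (-0.58), the actin and phosphatase regulator Phactr2 (-0.57) and Net1 (-0.56).

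Cdh1, Ddr1, Dpp4 and F3, genes of epithelial or stromal cells, were called lower. Cdh1, the gene of E-cadherin, read 6.64, 6.75 and 6.53 with TSC22D4 shRNA and 7.16, 7.40 and 7.16 with LCN13 shRNA (difference -0.60, SE 0.11, limma adjusted p = 0.0381). Ddr1, a collagen receptor of epithelia, read 7.70, 7.70 and 7.61 against 8.25, 8.42 and 8.21 (difference -0.63, adjusted p = 0.0348). In both genes LCN13 replicate 8, the LCN13 array with low mesothelial markers, lay with the other LCN13 arrays. Its side was fixed by the calling and is no separate support. Without LCN13 replicates 5 and 6 Cdh1 and Ddr1 differed by -0.53 and -0.55. The mesothelial keratins Krt8 and Krt18 differed by -0.93 (adjusted p = 0.0736) and -0.71 (adjusted p = 0.111). Without LCN13 replicates 5 and 6 these keratins still differed by -0.86 and -0.77, while 10 of the 16 mesothelial differences were then positive. Rspo1, a Wnt agonist of mesothelium, read 8.61, 8.44 and 8.46 against 9.63, 9.72 and 9.10 (difference -0.98, adjusted p = 0.0673). The mesothelial membrane protein Gpm6a overlapped, at 9.24, 8.92 and 9.95 against 10.56, 10.54 and 9.22. Of 13 fibroblast and preadipocyte markers 2 were called lower, against 0.574% of all genes, and 11 differences were negative with a median of -0.11. These markers were also listed with earlier results of these data known. Dpp4, a peptidase that marks early adipocyte progenitors, read 9.58, 9.31 and 9.37 against 10.10, 10.01 and 9.94 (difference -0.59, adjusted p = 0.0365). F3, the gene of tissue factor, read 10.21, 10.13 and 10.09 against 10.82, 10.81 and 10.43 (difference -0.54, adjusted p = 0.0388). Without LCN13 replicates 5 and 6 they differed by -0.52 and -0.29. The part of mesothelial RNA in these 4 calls was not tested. Dnajb1, a co-chaperone, was the only called gene of 13 heat shock genes (-0.36, adjusted p = 0.0293), beside 1.03% of all genes. All called lower genes named here and above other than Samd9l lost their calls without LCN13 replicates 5 or 6 or any TSC22D4 array (adjusted p up to 0.156).

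**Figure D5:**
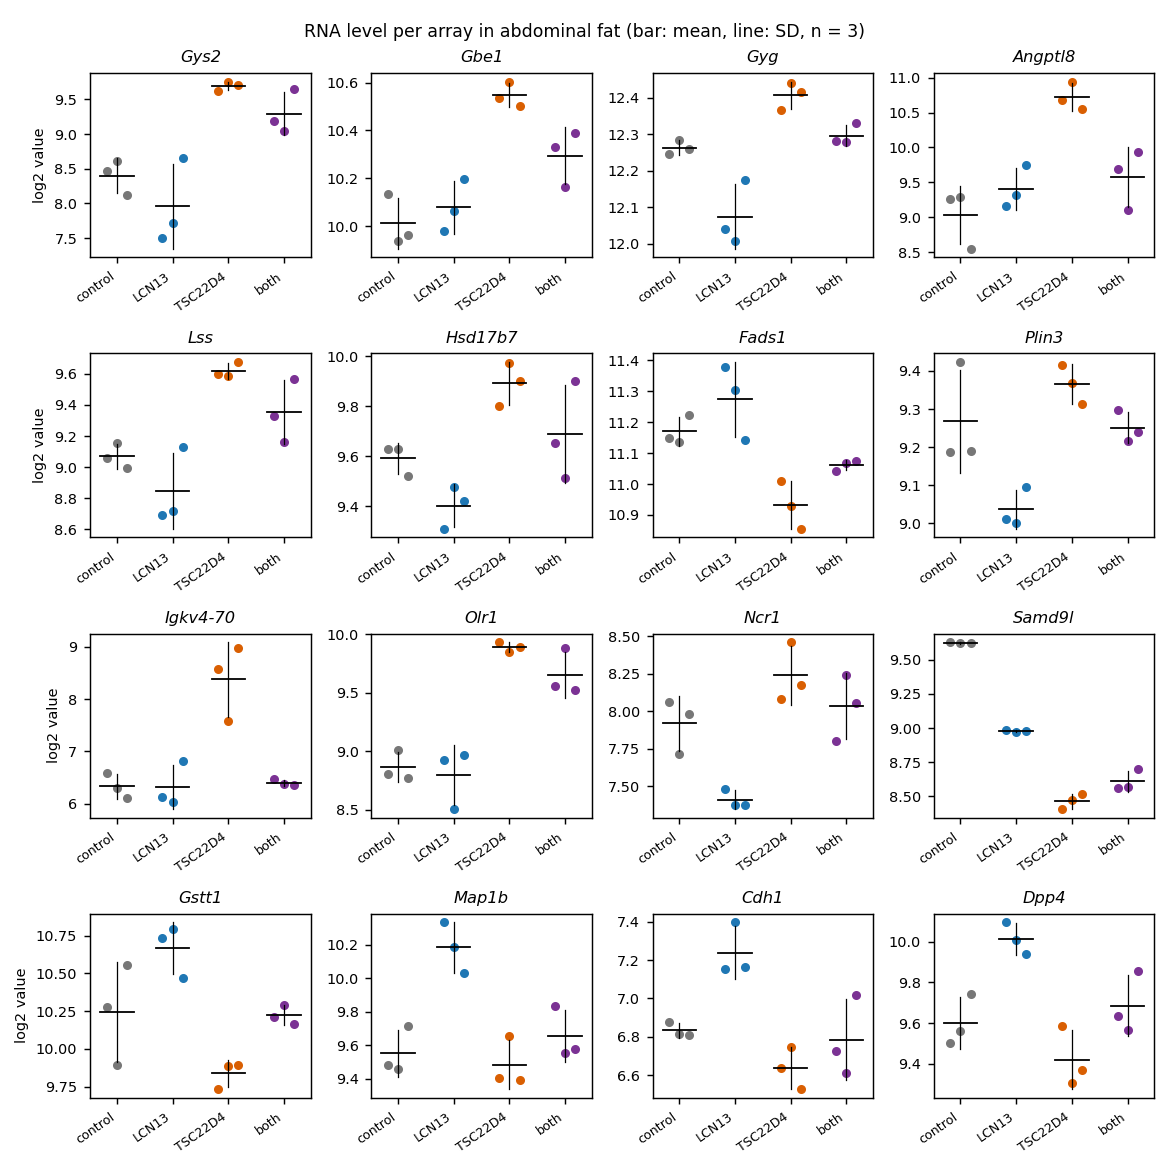
Log2 value (y axis) of 16 genes in each array of the 4 groups (x axis, 3 points per group), with a bar at the group mean and a line of 1 SD. For Gys2 the TSC22D4 arrays lie between 9.62 and 9.75 and the LCN13 arrays between 7.50 and 8.66, and the 3 TSC22D4 arrays are the highest for Angptl8, the only gene shown that was not called.

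The arrays with both shRNAs were also set against the control arrays, which share with the direct comparison only the estimate of spread. In that comparison 311 genes were called (1.34%), 73 higher and 238 lower. Of the 239 genes 15 were called there (6.28%), which is 4.82% of the 311. Among the 106 higher genes 3 were called higher there and 4 lower, and among the 133 lower genes 3 were called higher and 5 lower. Differences of both shRNAs from control were positive for 72 of the 106 higher genes, against 11990 of all 23185, and negative for 63 of the 133 lower genes. Olr1 and Samd9l were called in the same direction in both comparisons. Neither Gys2 (0.89, limma adjusted p = 0.222), Gyg (0.03, adjusted p = 0.904) nor Lss (0.29, adjusted p = 0.446) was called with both shRNAs against control.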

How the data were processed

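Abdominal fat RNA of 12 mice was measured on Affymetrix arrays, 3 per group. The authors deposited 1 log2 value per probe set and array, made with RMA per the submitters' processing notes; the sources used here do not give the version, the probe set definitions or the genome build. The lowest value was 5.62, the median 6.31 and the highest 14.38, and sorted columns differed by at most 0.00188. The arrays thus share 1 distribution, which removes a change common to most genes. Apart from that, RMA values compress differences of dim genes. Pairs of arrays within a group correlated at 0.994 to 0.998, and TSC22D4 with LCN13 arrays at 0.991 to 0.995. The number of arrays limits the precision.

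Of 25206 probe sets 23185 carry 1 gene symbol, all matched in the reference gene table (GRCm38.p6), and 2021 none. The named ones were tested in limma 3.58.1 (R 4.3.3; lmFit, contrasts.fit, eBayes) with 1 mean per group over all 12 arrays, which gives 8 residual and 1.38 prior degrees of freedom. Intervals are limma's 95% intervals for single genes. All adjusted p-values are limma's, two-sided, over all 23185 genes. The fit was tested on simulated data. Named genes are the 15 called genes with the largest difference and separate arrays in each direction, called list members, up to 4 members of each list, both targets and fixed readouts. The ranking passed over predicted genes, RNA genes and chemosensory receptors. In all, 28 process and 16 marker lists were counted; 21 and 14 of them had no called member. The members and lists were chosen with earlier results of these data known. Alternatives were other samples, filters, weights and priors, and leaving out arrays. No replicate number is shared between the groups. Promoters come from RefSeq.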

Additional observations from a re-analysis of the deposited data

How the results depend on the processing

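Leaving out 1 array at a time gave 2 to 582 calls, 1 to 307 higher and 1 to 275 lower. Array weights gave 1178 calls (557 higher, 621 lower), which include all 239. The weights were 2.06, 0.679 and 0.675 for LCN13 replicates 5, 6 and 8. Within the LCN13 group that fit thus leaned on replicate 5, an array high in mesothelial and liver markers. A fit of the 6 arrays alone gave 75 (29 higher, 46 lower), 38 of them shared with the 239. Without LCN13 replicates 5 and 6 there were 0 in limma, 0 higher and 0 lower, with 1784 genes at an unadjusted p under 0.05. A filter at a mean of 7 log2 (267 calls), all probe sets (224) and a trended, robust prior (222) stayed within 1.5 times of 239. With both shRNAs against control, the 311 calls became 518 with array weights and 126 in a fit of those 6 arrays alone, and 165 to 376 with 1 array left out. The lipogenesis median of 0.286 became 0.142 without LCN13 replicates 5 and 6, and the mesothelial median of -0.329 became 0.075. Over the single arrays left out these medians ran from 0.239 to 0.384 and from -0.593 to -0.198. The glycogen median of 0.138 became 0.247 with the dim filter, which leaves 11 of its 16 genes, 0.089 without TSC22D4 replicate 11 and 0.097 without LCN13 replicates 5 and 6. Of the 239 calls 201 had an adjusted p of 0.03 or more, near the threshold, and 70 had a mean under 7 log2, where RMA compresses differences. No paired analysis was possible because the TSC22D4 and LCN13 groups share no replicate number.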

Other observations

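Core clock genes, which keep the daily rhythm, had mostly negative differences between TSC22D4 and LCN13 shRNA. Of 17 measured 0 were called in limma, beside 1.03% of all genes, and 11 differences were negative with a median of -0.20. The arrays were separate in the lower direction for 9 and in the higher direction for 1, beside 25.2% of all genes in either direction. Dbp, an output gene of the clock, read 8.21, 9.29 and 9.36 in the TSC22D4 arrays and 9.87, 9.60 and 9.66 in the LCN13 arrays (difference -0.75, limma adjusted p = 0.551). Nr1d2, a repressor of the clock, read 9.65, 9.90 and 10.08 against 10.45, 10.45 and 10.46 (difference -0.58, adjusted p = 0.37), and Tef, a relative of Dbp, differed by -0.53 (adjusted p = 0.126). Nfil3, which opposes these factors at their sites, differed by 0.49 (adjusted p = 0.232). TSC22D4 replicate 10 was the lowest array of Dbp and Nr1d2. The hour at which each animal was killed is not given in the sources used here.

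Cell cycle genes had mostly positive differences. Of 24 measured 0 were called, beside 1.03% of all genes. In 22 the difference was positive, and the median was 0.16, beside -0.0046 over all genes. Relative to the 12-array mean, the list lay at 0.048, -0.019 and 0.222 in TSC22D4 replicates 10, 11 and 12. LCN13 replicates 5, 6 and 8 lay at -0.088, -0.105 and -0.06, and control replicate 2 at 0.166. TSC22D4 replicate 12 was thus the highest array. The mitotic kinase Plk1 read 7.64, 7.55 and 7.88 against 7.20, 7.18 and 7.20 (difference 0.50, adjusted p = 0.233), and the checkpoint kinase Bub1 differed by 0.41 (adjusted p = 0.129). Acute phase genes of fat gave wide spreads: Orm2 read 9.54, 9.77 and 8.38 against 8.04, 8.22 and 8.14 (difference 1.09, adjusted p = 0.166) and Saa3 differed by 0.78 (adjusted p = 0.248). Cox8b, a cytochrome oxidase subunit typical of brown fat, read 7.72, 7.64 and 8.27 against 6.79, 6.45 and 7.21 (difference 1.06, adjusted p = 0.0885). Of 15 brown and beige adipocyte genes 0 were called, beside 1.03% of all genes, and their median was 0.0046. Apod, a lipocalin that binds lipids in many tissues, read 9.59, 9.72 and 9.60 against 10.44, 10.47 and 11.14 (difference -1.05, adjusted p = 0.124).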
